A study of Homo sapiens with 5 samples.

Results

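The 7 genes described here encode enzymes that interconvert proline, ornithine, glutamate and glutamine: PRODH, ALDH4A1, ALDH18A1, PYCR1, OAT, GLS2 and GLUL. They were found by symbol among the 26485 genes of the deposited count table, and all 7 passed the filter on low counts that left 14187 genes for testing. PRODH passed this filter only through the doxorubicin libraries, where it was high. The set was put together with earlier results of these libraries known, and PRODH was selected on its large difference between doxorubicin and DMSO. Values of the 7 genes in that comparison are therefore given as a description, with no p-value.

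RNA-seq was performed on RPE1 cells, an immortalized human retinal pigment epithelial line labelled WT and grown in DMEM, after 18 h with DMSO (the solvent, 2 libraries), 0.2 μM doxorubicin (2 libraries) or 0.34 μM doxorubicin (1 library, so this concentration has no replicate). Doxorubicin intercalates into DNA and poisons topoisomerase 2, which leaves double-strand breaks. The concentrations are those of the sample titles, whereas the treatment protocol in the labels states 200 and 340 μM. The 3 doxorubicin libraries were compared as 1 group with the 2 DMSO libraries. This grouping, and the description of the libraries as biological replicates, follow the RNA-seq methods of the study.

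The counts on genes summed to between 23773061 and 36725345 per library. The chi-square per degree of freedom between libraries was 9.01 for 0.2 μM replicate 1 and the 0.34 μM library, but 75.3 between the 0.2 μM replicates and 74.1 for 0.2 μM replicate 2 and the 0.34 μM library, so the first 0.2 μM library was nearer to the higher concentration than to its own replicate. Of 11 retinal pigment epithelium markers, MITF, OTX2, KRT8 and KRT18 exceeded 1 CPM (counts scaled by library size) in all libraries. RPE65, RLBP1, TTR and TYR lay below 1 CPM throughout, as did LRAT, with up to 0.979 CPM in DMSO and at most 0.166 CPM in doxorubicin. BEST1 was at most 0.992 CPM in DMSO and 1.25 to 3.91 CPM in doxorubicin, and PMEL at most 0.267 and 0.851 to 1.33 CPM. The summed level of the list was 638 to 784 CPM in DMSO and 1050.4 to 1249 CPM in doxorubicin, a difference that lay in KRT8 (346 to 369 and 636 to 661 CPM) and KRT18 (238 to 327 and 334 to 515 CPM), while MITF and OTX2 overlapped between the groups. The fibroblast and mesenchymal markers COL1A1, PDGFRA and THY1 (3 of 6 listed) also exceeded 1 CPM in all libraries, with list sums of 443 to 800 CPM in DMSO and 398 to 619 CPM in doxorubicin. COL1A1 measured 287 and 64.5 CPM in DMSO, 189 and 42.7 CPM at 0.2 μM and 151 CPM at 0.34 μM. No marker of the leukocyte (0 of 4), endothelial (0 of 3) or other epithelial (0 of 4) lists did so, and the sums of these lists were at most 3.53 CPM in any library. CDH5 reached 2.19 CPM in DMSO replicate 2 and 2.87 CPM in 0.2 μM replicate 2, with at most 0.155 CPM elsewhere. PTPRC was at most 0.274 CPM in DMSO and 0.967 to 2.20 CPM in doxorubicin. The other markers of these lists stayed below 1 CPM. The part of these levels in the results below was not tested. In bulk RNA, fewer cells expressing a gene and less of its RNA per cell cannot be told apart.

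Proline is broken down in mitochondria by proline dehydrogenase (PRODH), which oxidizes it to pyrroline-5-carboxylate (P5C) and passes electrons to the respiratory chain, and by ALDH4A1, which oxidizes P5C to glutamate. In the opposite direction, ALDH18A1 makes P5C from glutamate, OAT exchanges P5C with ornithine, and PYCR1 reduces P5C to proline. GLS2, a glutaminase, releases glutamate from glutamine, and GLUL, glutamine synthetase, makes glutamine again.

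The windows around the annotated starts of GLS2 and ALDH4A1 are shown because these 2 genes were among the 3 of the set that were higher in doxorubicin, and that of ALDH18A1 because it held a motif that was searched for. RefSeq (GRCh38.p14) gave 7 windows for 5 of the 7 genes, each from 250 bases before to 50 bases after a start. PRODH and PYCR1 had no entry. The windows were searched on both strands for the E-box CACGTG, which MYC can bind, and for TGATGNAA, the core of the composite element that ATF4 can bind with a C/EBP protein. Capitals mark a match. ALDH4A1 has 2 annotated starts, given as start 1 (chr1:18902506-18902805) and start 2 (chr1:18890842-18891141). The GLS2 window is chr12:56488112-56488411 and the ALDH18A1 window chr10:95656662-95656961, and all of these lie on the minus strand.
GLS2: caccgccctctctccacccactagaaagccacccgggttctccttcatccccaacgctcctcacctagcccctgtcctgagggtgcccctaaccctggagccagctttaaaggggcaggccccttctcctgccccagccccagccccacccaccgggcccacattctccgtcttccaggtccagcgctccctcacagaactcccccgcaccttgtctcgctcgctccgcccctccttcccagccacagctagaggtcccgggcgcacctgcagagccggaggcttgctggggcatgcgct
ALDH4A1 start 1: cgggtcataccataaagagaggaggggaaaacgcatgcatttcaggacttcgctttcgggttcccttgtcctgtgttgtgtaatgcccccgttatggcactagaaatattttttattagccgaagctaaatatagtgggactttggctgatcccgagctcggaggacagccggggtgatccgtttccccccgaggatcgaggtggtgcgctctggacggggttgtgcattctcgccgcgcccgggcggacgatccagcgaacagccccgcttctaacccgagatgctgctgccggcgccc
ALDH4A1 start 2: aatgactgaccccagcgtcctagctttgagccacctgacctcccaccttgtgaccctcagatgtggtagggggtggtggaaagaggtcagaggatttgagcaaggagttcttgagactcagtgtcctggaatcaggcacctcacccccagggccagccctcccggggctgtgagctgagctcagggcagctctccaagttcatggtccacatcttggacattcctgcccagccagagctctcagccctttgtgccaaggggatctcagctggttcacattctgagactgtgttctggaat
ALDH18A1: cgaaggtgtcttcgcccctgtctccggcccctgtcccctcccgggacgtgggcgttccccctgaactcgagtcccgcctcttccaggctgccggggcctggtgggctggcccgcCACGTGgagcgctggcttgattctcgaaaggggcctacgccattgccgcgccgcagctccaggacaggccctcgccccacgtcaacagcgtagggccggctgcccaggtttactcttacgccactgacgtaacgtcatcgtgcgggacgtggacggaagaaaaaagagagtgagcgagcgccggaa
The ALDH18A1 window held 1 E-box, as did 7.26% of 35116 RefSeq windows of the same length at least once. The other 6 windows of these genes held 0 E-boxes. TGATGNAA was in 3.62% of all windows and in 0 of the 7. These are matches of letters and not measured sites.

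PRODH, ALDH4A1 and GLS2 were higher in all 3 doxorubicin libraries than in both DMSO libraries, and ALDH18A1, OAT, PYCR1 and GLUL differed by less than 0.4 on the log2 scale. At an adjusted p threshold of 0.01 in edgeR's quasi-likelihood test, 3 of the 7 genes were called higher and 0 lower. Among all 14187 genes tested, 4.02% were called, with 1.29% higher and 2.73% lower. The CPM of the groups did not overlap for 4 of the 7 genes, 3 higher and 1 lower, beside 47.7% of all genes tested. Nothing is read from these counts, because the set was chosen on this comparison. The median log2 fold change was 0.20 over the 7 genes and 0.01 over all genes.

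The difference was widest in the gene that starts proline breakdown. PRODH (chr22:18912781-18936553) had 1 and 2 counts in the DMSO libraries, 160 and 389 counts in the 0.2 μM libraries and 892 counts in the 0.34 μM library. After TMM normalization these were 0.0381 and 0.0783 CPM in DMSO, 6.19 and 16.2 CPM at 0.2 μM and 24.6 CPM at 0.34 μM. PRODH was thus close to undetected without the drug and present in every treated library. The mean was 0.0582 ± 0.0284 CPM in DMSO (SD, n = 2) and 15.6 ± 9.21 CPM in doxorubicin (SD, n = 3). Depth-corrected, the pooled counts of 1441 against 3 gave a ratio of 288. Its exact 95% interval from 98.5 to 1399.8 covers counting error only and not the spread between libraries. PRODH was selected on this difference, so the interval is a description and no support for it. The fitted log2 fold change was 7.97 (SE 0.92) in edgeR and 8.07 in DESeq2. With so few reads in DMSO, the edgeR estimate depends on the prior count of its fit, which is not that of the log2 CPM. The treated libraries also differed among themselves, since the second 0.2 μM library had 2.61 times the PRODH CPM of the first.

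ALDH4A1 (chr1:18871430-18902555), which takes the product of PRODH on to glutamate, was already present without the drug. It measured 13.2 and 16.4 CPM in DMSO, 49.8 and 44.2 CPM at 0.2 μM and 58.0 CPM at 0.34 μM. The lowest treated library lay well above the higher DMSO library, and the 0.2 μM replicates were close to each other. The means were 14.8 ± 2.27 CPM (SD, n = 2) and 50.7 ± 6.94 CPM (SD, n = 3), a ratio of 3.43. The log2 fold change was 1.78 (SE 0.20). Both enzymes of proline breakdown were thus higher with doxorubicin, from very different levels in DMSO.

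**Figure D1:**
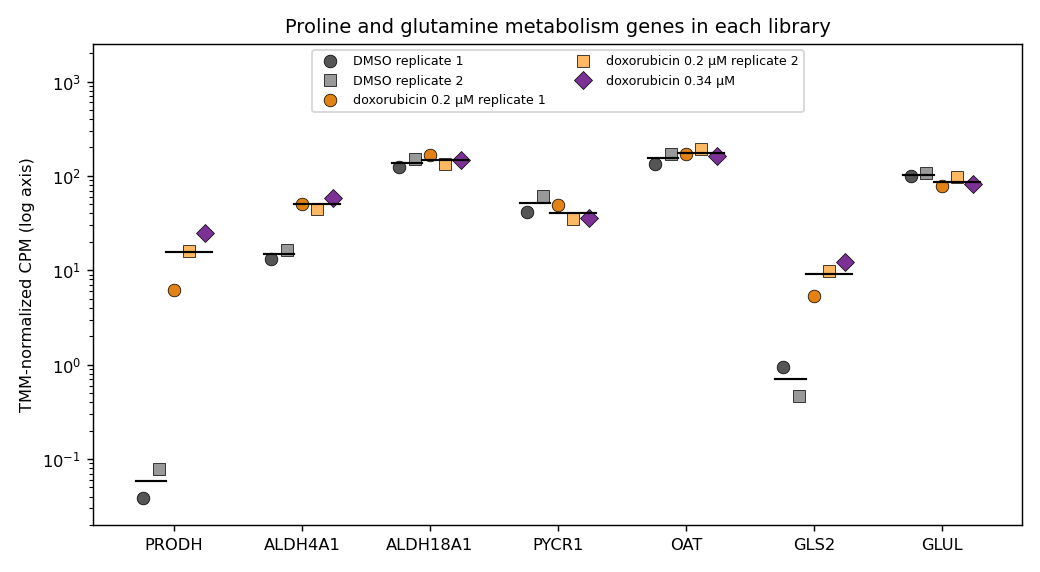
TMM-normalized CPM (log axis) of the 7 genes in each of the 5 libraries, with circles and squares for replicates 1 and 2, diamonds for the 0.34 μM library and lines at the group means. PRODH, GLS2 and ALDH4A1 lie higher in the 3 doxorubicin libraries than in both DMSO libraries, while ALDH18A1, PYCR1 and OAT overlap between the groups.

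The 3 genes of proline synthesis showed no such separation. ALDH18A1 (chr10:95605941-95656711), the P5C synthase, measured 124 and 152 CPM in DMSO, 168 and 134 CPM at 0.2 μM and 146 CPM at 0.34 μM. The groups overlapped, and the log2 fold change of 0.11 was smaller than its SE of 0.17. PYCR1 (chr17:81932391-81937300), the mitochondrial reductase of the last step, measured 41.5 and 60.8 CPM in DMSO, 48.9 and 35.2 CPM at 0.2 μM and 36.1 CPM at 0.34 μM. Its DMSO replicates differed 1.46-fold, which was wider than the difference between the group means, and the log2 fold change was -0.35 (SE 0.23). OAT (chr10:124397303-124418923), the aminotransferase that links ornithine to P5C, measured 135 and 171 CPM in DMSO, 169 and 194 CPM at 0.2 μM and 163 CPM at 0.34 μM. Here too the groups overlapped, with a log2 fold change of 0.20 (SE 0.17). Of the 3, PYCR1 had the negative estimate.

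Of the pair that breaks down and makes glutamine, GLS2 was higher and GLUL was not called. GLS2 (chr12:56470952-56488161), the mitochondrial glutaminase best known from liver, had 25 and 12 counts in DMSO, 138 and 236 counts at 0.2 μM and 442 counts at 0.34 μM. This was 0.954 and 0.470 CPM in DMSO, 5.34 and 9.81 CPM at 0.2 μM and 12.2 CPM at 0.34 μM. Every treated library exceeded the higher DMSO library, and the DMSO libraries both lay below 1 CPM. The means were 0.712 ± 0.342 CPM (SD, n = 2) and 9.11 ± 3.48 CPM (SD, n = 3), and the log2 fold change was 3.67 (SE 0.52). The pooled counts of 816 against 37 gave a depth-corrected ratio of 13.2 with an exact 95% interval of 9.52 to 18.9. This interval too covers counting error only and is a description. As with PRODH, the second 0.2 μM library was above the first, by 1.84 times.

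GLUL (chr1:182378098-182391790) measured 100.1 and 107 CPM in DMSO, 78.2 and 97.3 CPM at 0.2 μM and 82.4 CPM at 0.34 μM. The treated libraries all lay below the DMSO libraries, the nearest of them by a narrow margin. The means were 103 ± 4.55 CPM (SD, n = 2) and 86.0 ± 10.02 CPM (SD, n = 3), with a log2 fold change of -0.27 (SE 0.15), and the gene was not called.

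**Figure D2:**
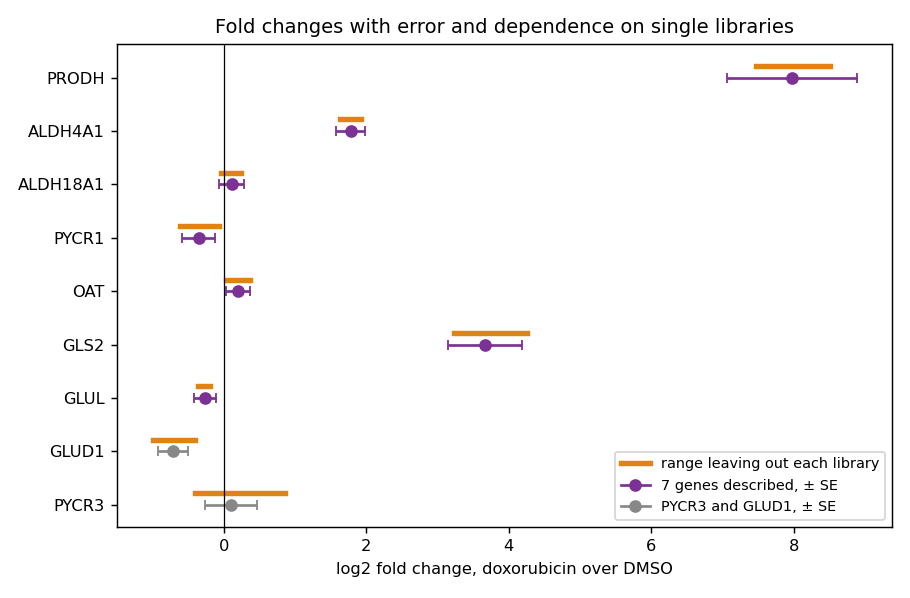
Log2 fold change of doxorubicin over DMSO for the 7 genes (purple points) and 2 related enzymes (grey points), with bars for ± SE and an orange line for the range when each library was left out in turn. PRODH at 7.97, GLS2 at 3.67 and ALDH4A1 at 1.78 stay far from 0 throughout, while the ranges of ALDH18A1 and PYCR3 cross 0. The 7 genes were chosen on this comparison, so their ranges are a description.

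The fold changes of the 3 higher genes stayed large when single libraries were left out, whereas their calls were lost in several of these fits. Because the set was chosen on this comparison, the ranges describe the dependence on single libraries and are no support for the difference. Leaving out each library in turn gave log2 fold changes of 7.47 to 8.51 for PRODH, 1.62 to 1.93 for ALDH4A1 and 3.23 to 4.26 for GLS2. With fewer libraries the number of the 7 genes called fell from 3 to 0 without DMSO replicate 1, DMSO replicate 2 or 0.2 μM replicate 2. It was 2 (PRODH and GLS2) without 0.2 μM replicate 1 and 1 (PRODH) without the 0.34 μM library. The calls over all genes dropped as well in these fits, from 571 to between 49 and 215. Of the genes not called, PYCR1 ranged from -0.61 to -0.07, GLUL from -0.36 to -0.20, OAT from 0.02 to 0.36 and ALDH18A1 from -0.04 to 0.25.

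Levels of different genes were compared as CPM per kilobase of the MANE Select transcript, whose lengths come from GENCODE and not from the annotation the authors counted with. In DMSO the order from high to low was OAT (75.1 ± 12.7), ALDH18A1 (41.3 ± 5.90), PYCR1 (22.6 ± 6.01), GLUL (13.7 ± 0.603), ALDH4A1 (4.70 ± 0.723), GLS2 (0.298 ± 0.143) and PRODH (0.0264 ± 0.0129), each as mean and SD of 2 libraries. Proline synthesis genes thus held the 3 highest levels, and no neighbours in this order overlapped between libraries. In doxorubicin, over 3 libraries, OAT (86.0 ± 7.999), ALDH18A1 (44.5 ± 5.19) and PYCR1 (17.7 ± 3.37) were followed by ALDH4A1 (16.1 ± 2.21), GLUL (11.4 ± 1.33), PRODH (7.10 ± 4.18) and GLS2 (3.82 ± 1.46). ALDH4A1 moved above GLUL and PRODH above GLS2. The place of ALDH4A1 above GLUL rests on the transcript lengths used, 3139 and 7554 bases. In CPM without length, GLUL (mean 86.0) stayed above ALDH4A1 (50.7) in doxorubicin. The ranges of PYCR1 and ALDH4A1 now overlapped, as did those of PRODH with GLUL and with GLS2, although PRODH exceeded GLS2 in each of the 3 treated libraries.

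Within each library, ALDH4A1 and PRODH were set against PYCR1, the lowest of the synthesis genes per kilobase. Both came closer to PYCR1 in doxorubicin. ALDH18A1 (mean 44.5 CPM per kilobase) and OAT (86.0) stayed above ALDH4A1 (16.1) and PRODH (7.10) there. The set was chosen on this comparison, so the higher ratios are a description. The per-kilobase ratio of ALDH4A1 to PYCR1 was 0.229 and 0.195 in DMSO, 0.737 and 0.907 at 0.2 μM and 1.16 at 0.34 μM. The ratio of PRODH to PYCR1 was 0.000946 and 0.00133 in DMSO, 0.130 and 0.473 at 0.2 μM and 0.702 at 0.34 μM. ALDH4A1 thus reached the level of PYCR1 in the 0.34 μM library, and PRODH stayed below PYCR1 in every library. PRODH relative to ALDH4A1, the enzyme that follows it, was 0.00413 and 0.00682 in DMSO, 0.177 and 0.521 at 0.2 μM and 0.604 at 0.34 μM. The DMSO values of both PRODH ratios rest on 1 and 2 counts.

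GLS2 and GLUL run the opposite reactions between glutamine and glutamate. The ratio of GLS2 to GLUL per kilobase was 0.0302 and 0.0140 in DMSO, 0.216 and 0.319 at 0.2 μM and 0.468 at 0.34 μM. GLS2 transcripts thus stayed below those of GLUL in all 5 libraries, and the groups did not overlap. These ratios describe RNA and not enzyme activity.

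**Figure D3:**
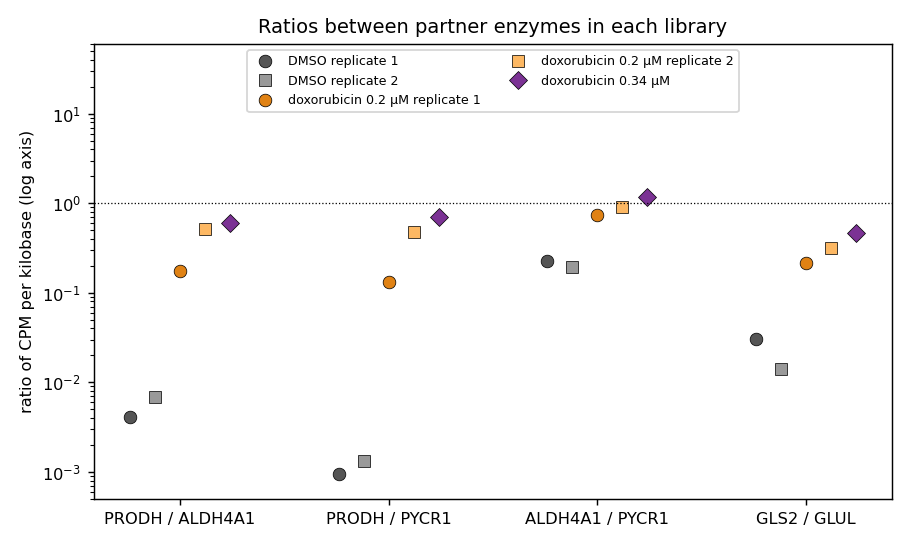
Ratio of CPM per kilobase (log axis) between enzymes of linked steps in each library, with the dotted line at equal levels. All 4 ratios are higher in the doxorubicin libraries, and ALDH4A1 to PYCR1 in the 0.34 μM library, at 1.16, is the one that crosses the line.

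The comparison of 0.34 with 0.2 μM was not used to choose the genes and was tested in a fit of 3 conditions, in which the single 0.34 μM library was assumed to vary like the other conditions. None of the 7 genes was called (0 of 7), and 0% of all genes tested were called. With edgeR, 22 genes had an unadjusted p under 0.05, and with DESeq2 26 had one and 0 were called. The log2 difference of PRODH was 1.14 (SE 0.56, edgeR unadjusted p = 0.0822), that of GLS2 was 0.69 (SE 0.55, edgeR unadjusted p = 0.256) and that of ALDH4A1 was 0.30 (SE 0.29, edgeR unadjusted p = 0.326). The 3 estimates were positive, and each gene had its highest CPM at 0.34 μM, with 2.20 (PRODH), 1.61 (GLS2) and 1.23 (ALDH4A1) times the mean of the 0.2 μM libraries. Against 0.2 μM replicate 1 the step was 3.97-fold for PRODH, 2.28-fold for GLS2 and 1.16-fold for ALDH4A1, and against replicate 2 it was 1.52-fold, 1.24-fold and 1.31-fold. The gap between the 0.2 μM replicates, 2.61-fold for PRODH and 1.84-fold for GLS2, lay between the 2 steps of each gene. The other estimates were -0.05 (SE 0.29) for ALDH18A1, -0.22 (SE 0.36) for PYCR1, -0.15 (SE 0.28) for OAT and -0.09 (SE 0.26) for GLUL. A difference between the concentrations was not detectable with 1 library at 0.34 μM and no term for replicates in the fit. The 0.34 μM library was nearer to 0.2 μM replicate 1 (chi-square per degree of freedom 9.01) than to replicate 2 (74.1). The part of this in the estimates was not tested.

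Of the isoenzymes and direct partners of the 7 genes, PYCR3 and GLUD1 were tested, and neither was past the threshold (edgeR quasi-likelihood, p adjusted by Benjamini-Hochberg). PYCR3, a P5C reductase listed under the older symbol PYCRL, had a log2 fold change of 0.11 (SE 0.36, edgeR adjusted p = 0.875). PRODH2, which acts on hydroxyproline, had 0 counts in all libraries, and a count of 0 allows up to 0.0817 to 0.126 CPM (3 counts). GLUD1, glutamate dehydrogenase, measured 136 and 207 CPM in DMSO, 117 and 99.5 CPM at 0.2 μM and 95.9 CPM at 0.34 μM. All treated libraries lay below both DMSO libraries, but the log2 fold change of -0.72 (SE 0.21, edgeR adjusted p = 0.0681) did not pass.

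The other lists held 71 genes of proline, glutamine, glutamate, ornithine and polyamine metabolism and their carriers, of which 60 were tested. Of these, 1 passed the threshold as higher, 2 as lower and 57 did not pass, so that 5.00% were called, near the 4.02% of all genes tested (1.29% higher and 2.73% lower). Their median was -0.02 on the log2 scale, beside 0.01 over all genes. The groups did not overlap for 29 of the 60, or 48.3%, near the 47.7% of all genes tested. DESeq2 called 4 higher and 5 lower, in a test that called 14.6% of all genes.

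The gene called higher was NADSYN1, which makes NAD with glutamine as the nitrogen donor. It measured 29.7 and 27.8 CPM in DMSO, 115 and 153 CPM at 0.2 μM and 154 CPM at 0.34 μM, with a log2 fold change of 2.29 (SE 0.19, edgeR adjusted p = 0.00138). The genes called lower were ASNS and SMS. ASNS, asparagine synthetase, which also consumes glutamine, measured 40.3 and 39.8 CPM in DMSO, 15.8 and 15.4 CPM at 0.2 μM and 15.1 CPM at 0.34 μM, and fell by 1.38 on the log2 scale (SE 0.15, edgeR adjusted p = 0.00274). SMS, spermine synthase, measured 238 and 203 CPM in DMSO, 102 and 106 CPM at 0.2 μM and 93.5 CPM at 0.34 μM, and fell by 1.13 (SE 0.15, edgeR adjusted p = 0.00544). In none of these 3 genes did the groups overlap. Without either DMSO library none of the 3 was called, and without any one treated library only NADSYN1 was. The log2 fold changes stayed about as large in these 5 fits, at 2.22 to 2.42 for NADSYN1, -1.40 to -1.35 for ASNS and -1.26 to -1.02 for SMS.

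By list, the 10 glutamine amidotransferases, enzymes that take nitrogen from glutamine, had 1 gene called higher (NADSYN1) and 1 lower (ASNS), and the list's median was -0.69 on the log2 scale. DESeq2 also called GMPS lower in this list. Of the 13 tested proline enzymes outside the 7 genes, 0 were called by edgeR and the median was 0.16. DESeq2 called 2 of these, P4HA2 and PEPD (chosen for naming after their values were seen), a prolyl hydroxylase subunit of collagen synthesis and the peptidase that frees proline from dipeptides. Their log2 fold changes were 1.21 (edgeR adjusted p = 0.0126) and 1.02 (edgeR adjusted p = 0.0145). The 10 tested genes of the list of glutamate dehydrogenase and the aminotransferases had 0 calls in edgeR and 1 lower in DESeq2, with a median of -0.03. The DESeq2 call was PSAT1, named after its values were seen. Its log2 fold change of -1.51 (edgeR adjusted p = 0.0151) was the lowest of the 60 tested genes. Of 17 tested carriers of proline, glutamine and glutamate 0 were called in edgeR, with a median of 0.14, and of 10 tested ornithine, arginine and polyamine genes only SMS was, with a median of -0.03. DESeq2 also called the carrier SLC36A4 lower and SAT1, which acetylates polyamines, higher. GMPS, SLC36A4 and SAT1, named after their values were seen, had log2 fold changes of -1.04, -0.95 and 1.65 (edgeR adjusted p = 0.0146, 0.0139 and 0.0401). At an unadjusted p under 0.05 in edgeR there were 3 of the proline enzymes, 2 of the dehydrogenase and aminotransferase list, 5 of the amidotransferases, 8 of the carriers, 4 of the ornithine, arginine and polyamine genes and 22 of all 60 genes, beside 4368 of the 14187 genes tested.

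**Figure D4:**
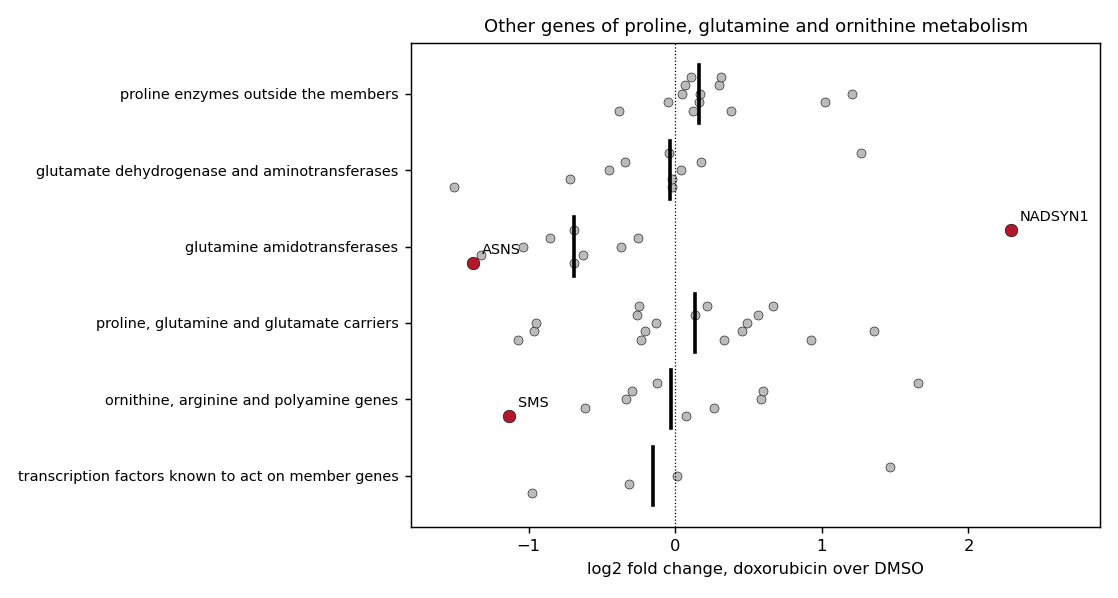
Log2 fold change of doxorubicin over DMSO for each tested gene of the lists outside the 7 genes, with black lines at the list medians and red points for genes past an edgeR adjusted p of 0.01. The 10 glutamine amidotransferases hold both NADSYN1 at 2.29 and ASNS at -1.38, and the medians of the other lists lie between -0.15 and 0.16.

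Of 4 tested transcription factors known to act on genes of the set, 0 passed the threshold in edgeR, 1 had an unadjusted p under 0.05, and 0 of the 3 to which DESeq2 gave an adjusted p passed there. Over all genes tested, edgeR called 4.02% and DESeq2 14.6%, and 4368 of 14187 had an edgeR unadjusted p under 0.05. Nothing is read from counts over so few genes. TP63, the factor without an adjusted p in DESeq2, had 3 and 4 counts in DMSO, 6 and 12 at 0.2 μM and 15 at 0.34 μM (log2 fold change 1.46, edgeR adjusted p = 0.169), and its relative TP73 had at most 4 counts and was not tested. The filter on low counts kept TP63 only through doxorubicin libraries, where it had more counts. MYC (0.01, edgeR adjusted p = 0.978), ATF4 (-0.31, edgeR adjusted p = 0.242) and PPARG (-0.98, edgeR adjusted p = 0.111) complete the list. MYC differed by less than the spread between replicates, and the treated libraries of ATF4 and PPARG all lay below both DMSO libraries without passing the test. The groups did not overlap for 3 of the 4 factors tested, beside 47.7% of all genes tested, and nothing is read from this.

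Over the 5 libraries, the genes whose log2 CPM followed PRODH most closely were CDIP1, TEP1, C1orf50, ADARB1 and SRGAP3, with Pearson r of 0.998 to 0.999. ALDH4A1 and GLS2 each had an r of 0.979 with PRODH, ranking 285 and 289 among the genes tested. OAT had 0.605, ALDH18A1 0.274, PYCR1 -0.64 and GLUL -0.70. These are descriptions over 5 libraries that fall into treated and untreated, and 778 genes had an r of at least 0.95.

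The positions given are those of RefSeq on GRCh38, and ALDH18A1, PYCR1, OAT and GLUL overlap no other gene there. GLS2 overlaps SPRYD4, which had a log2 fold change of 0.51 (edgeR adjusted p = 0.155) and 288 to 643 counts. The strand setting of the counting was not given in the sources used here, so reads of this overlap could have been counted for either gene or for neither. ALDH4A1 overlaps MIR4695 and MIR1290, both at 0 counts, and PRODH overlaps LOC122455341, which has no row in the table. Of the other genes called, NADSYN1 overlaps MIR6754, at 0 counts, ASNS overlaps 3 annotated genes without a row and SMS overlaps 0. Pseudogenes of PRODH, OAT and GLUL are annotated in RefSeq and have no row in the table, so the counts of these 3 genes are uncertain where reads could fit both.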

How the data were processed

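RNA was measured in 5 RPE1 libraries, and the ChIP-seq and Hi-C data of the study were left out (not analysed here). The deposited values are the authors' raw read counts per gene, from poly-A RNA reads mapped to hg38 with STAR and counted with featureCounts of Rsubread on the iGenomes annotation. Versions, strand setting and the handling of multi-mapping reads were not given in the sources used here. A deposited table of fold changes and p-values from the authors' own DESeq2 comparison was not used.

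The counts were fitted in R 4.3.3 with edgeR 4.0.16 (TMM normalization, filterByExpr at its minimum count, 10, and minimum total, 15, quasi-likelihood test, Benjamini-Hochberg adjustment over all genes tested, threshold 0.01), without covariates. Each SE was obtained from the log2 fold change and the F statistic, as the former's size over the root of the latter. DESeq2 1.42.0 was an alternative, besides RLE normalization, no filter, a threshold of 0.05, a replicate block and leaving out each library. For log2 CPM the prior count was 2. The fit was also run on simulated counts, drawn independently for each library. That run held no replicate effect shared between groups, so it does not bear on one.

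Total counts per library were 23773061 to 36725345. Intervals from counts were exact binomial intervals on pooled counts, with no term for variation between libraries, so they cover counting error only. Libraries of 1 condition differed by far more than sampling noise (chi-square per degree of freedom 117 for DMSO and 75.3 for 0.2 μM), and all were kept as separate samples.

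The 7 genes, the pathway lists (from general knowledge, not a database) and the tests were chosen with earlier results of these data known. The genes named are the 7, the isoenzymes and direct partners GLUD1, PYCR3 and PRODH2, every listed gene past the threshold, 5 transcription factors, and the 5 genes most correlated with PRODH. Any other gene was picked after seeing its values, as stated there, or overlaps one of the 7. Some genes of the lists are not reported here and were left out of the list counts.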

Additional observations from a re-analysis of the deposited data

How the results depend on the processing

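The 7 genes were chosen on the contrast with DMSO, so their calls there are no sign of stability and are given as counts. These were 3 of 7 with DESeq2, RLE normalization, no filter, a threshold of 0.05 and the replicate block, with 2073, 564, 1020, 1927 and 1249 of all genes called. Leaving out each library gave 0 to 2 of the 7 genes, and 0 to 1 of the other pathway genes (3 with all libraries). The other pathway genes called numbered 9 with DESeq2, 8 without the filter, 9 at a threshold of 0.05 and 8 with the replicate block. In the same settings the calls over all genes rose too, from 571 of 14187. They were 2073 of 14187, 1020 of 20717, 1927 of 14187 and 1249 of 13891, and the cause was not tested. The fit with the replicate block also left out the 0.34 μM library, and the same libraries without the block gave 1 of the 7 genes, 1 other pathway gene and 178 of all genes. The labels share replicate numbers but do not say that a number marks a shared culture. In the paired check the deviations of DMSO and 0.2 μM replicate 1 correlated at 0.53 over genes, from 2 pairs. ASNS and SMS lost their call in each of the 5 fits that left out a library (adjusted p of up to 0.0231 and 0.0392 in edgeR), and NADSYN1 without either DMSO library (0.0109 and 0.0159), with log2 fold changes of -1.40 to -1.35, -1.26 to -1.02 and 2.22 to 2.42 over these fits. Small estimates changed sign: leaving out each library gave -0.40 (without DMSO replicate 1) to 0.85 for PYCR3 and -0.22 to 0.25 for MYC (below 0 without DMSO replicate 2 and, at -0.14, without 0.2 μM replicate 2). None of the 7 alternatives that could be fitted between the concentrations called any gene of the table. The absence of calls among the 7 genes could thus not come out otherwise and is no sign of stability. Depth limits PRODH in DMSO, which rests on 3 counts.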
